A study of Rattus norvegicus with 4 samples.

Results

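The nuclear genes for the mitochondrial respiratory chain and ATP synthase were read in surface colonocytes of rat distal colon, the absorptive epithelial cells that line the gut lumen. They were chosen by gene symbol alone, as every array row with a single symbol that begins with Nduf, Uqcr, Atp5 or Cox4 to Cox8, or that is Sdha, Sdhb, Sdhc or Sdhd. This gave 63 genes with 1 row each among 19403 rows: 20 in complex I, 4 in complex II, 6 in complex III, 12 in complex IV, 14 in complex V and 7 assembly factors of complex I. The cells came from 4 Wistar rats aged 12 weeks that had lost both adrenal glands 4 days earlier and drank 0.9% NaCl, so that the controls also lacked their own adrenal steroids. The vehicle group was 2 rats injected with vehicle and given minipumps of PEG300. The aldosterone group was 2 rats given 50 µg aldosterone per 100 g body weight under the skin and minipumps set to deliver 10 µg/kg per hour, for 2 h. Their colons were then shaken for 40 min in medium that held 100 nM aldosterone, or vehicle for the controls. Each rat gave 1 Affymetrix exon array. The comparison asks which transcripts differ after this short exposure to the hormone. Values are log2 expression values, 1 row per gene. The level of a row depends on its probes, so levels are compared between rats and not between genes.

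The respiratory chain passes electrons from NADH (through complex I) and from succinate (through complex II) to ubiquinone, then through complex III and cytochrome c to complex IV, which reduces oxygen. Complexes I, III and IV pump protons across the inner mitochondrial membrane, and complex V, the ATP synthase, uses the returning protons to make ATP. Colonocytes draw much of their ATP from mitochondrial oxidation of butyrate, and the sodium pump that aldosterone-driven sodium absorption relies on is a large consumer of it. Most subunits are encoded in the nucleus, and their promoters are known for sites of the activators NRF1, GABP (an ETS factor) and YY1.

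The promoters are shown first because the choice by symbol did not use their sequence. RefSeq promoters of the GRCr8 assembly, 250 bases before to 50 bases after the annotated start, were found for 57 of the 63 genes. Those without an entry are Cox4i2, Cox6a1, Cox6c, Cox6c-ps1, Uqcr11 and Ndufaf6. Those printed are, in complexes I to IV, the gene of highest mean level whose promoter held at least 1 match to those 3 motifs, and in complex V the only promoter that held all 3. Capitals mark the matches, on either strand. They are CCGGAAG or its reverse complement for ETS factors such as GABP, and AAGATGGC or its reverse complement for YY1. The NRF1 motif or its reverse complement was marked as well. That motif leaves 1 base free, so NRF1 matches in other promoters can differ from the palindromic form seen in Atp5me.
Ndufs1 (chr9:72073556-72073855, - strand): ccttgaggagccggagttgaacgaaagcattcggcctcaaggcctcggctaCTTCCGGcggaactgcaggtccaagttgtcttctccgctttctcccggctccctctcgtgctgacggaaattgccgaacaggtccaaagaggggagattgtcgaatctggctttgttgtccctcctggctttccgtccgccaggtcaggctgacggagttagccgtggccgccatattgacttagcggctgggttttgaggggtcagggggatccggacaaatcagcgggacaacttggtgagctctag
Sdhc (chr13:86097976-86098275, - strand): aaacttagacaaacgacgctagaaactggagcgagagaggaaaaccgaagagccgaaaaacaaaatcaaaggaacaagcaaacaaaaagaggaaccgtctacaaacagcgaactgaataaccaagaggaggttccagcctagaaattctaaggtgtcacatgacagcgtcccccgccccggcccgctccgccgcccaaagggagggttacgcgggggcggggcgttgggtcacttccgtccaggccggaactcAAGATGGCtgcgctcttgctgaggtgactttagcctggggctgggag
Uqcrc2 (chr1:184598990-184599289, + strand): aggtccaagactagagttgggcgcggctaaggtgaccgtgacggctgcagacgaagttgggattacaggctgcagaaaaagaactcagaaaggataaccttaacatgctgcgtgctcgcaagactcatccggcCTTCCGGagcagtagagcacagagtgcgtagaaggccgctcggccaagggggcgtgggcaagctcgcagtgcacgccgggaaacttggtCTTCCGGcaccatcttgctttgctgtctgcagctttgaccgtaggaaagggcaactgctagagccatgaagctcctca
Cox4i1 (chr19:65630133-65630432, + strand): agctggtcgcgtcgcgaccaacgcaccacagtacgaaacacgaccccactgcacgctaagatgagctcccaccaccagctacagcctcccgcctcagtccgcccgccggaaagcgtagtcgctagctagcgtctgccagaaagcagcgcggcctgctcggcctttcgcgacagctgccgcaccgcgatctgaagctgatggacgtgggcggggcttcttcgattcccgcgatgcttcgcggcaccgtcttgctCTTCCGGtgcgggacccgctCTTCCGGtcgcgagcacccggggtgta
Atp5me (chr14:1464610-1464909, + strand): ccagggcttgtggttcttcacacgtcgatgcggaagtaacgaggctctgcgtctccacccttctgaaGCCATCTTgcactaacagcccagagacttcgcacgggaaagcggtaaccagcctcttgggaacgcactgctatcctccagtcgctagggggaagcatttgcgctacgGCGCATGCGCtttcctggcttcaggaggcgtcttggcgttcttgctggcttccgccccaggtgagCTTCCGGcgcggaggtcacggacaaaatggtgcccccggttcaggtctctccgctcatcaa

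The NRF1 motif was found in 14 of the 57 promoters (24.6%), among them Sdha, Uqcrc1, Atp5mc3 and Atp5me. It was found in 5.66% of 21842 promoters of protein-coding genes and in 4.25% of all 33469 promoters of that length. The ETS motif was in 16 (28.1%), including Ndufs1, Sdhb, Uqcrc2, Cox4i1 and Atp5f1a, against 10.7% of protein-coding and 8.75% of all promoters. The YY1 motif was in 11 (19.3%), against 3.68% and 3.17%. Together, 34 promoters (59.6%) held at least 1 of these motifs, against 17.9% of protein-coding and 14.6% of all promoters. Of the promoters printed above, Sdhc has its YY1 match and Cox4i1 its first ETS match 3 bases past the annotated start, and Atp5me its ETS match 11 bases before it. The hexamer AGGTCA, read by estrogen-related and other nuclear receptors, was in 17 promoters (29.8%), against 14.2% of protein-coding and 16.2% of all promoters. A GC box (GGGCGG) was in 23 (40.4%), close to the 41.8% of protein-coding promoters. TATAAA was in 3 (5.26%), against 14.2% of all promoters.

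Motifs of the corticosteroid receptors were also counted. The hexamer AGAACA was in 3 promoters (5.26%), those of Atp5f1c, Ndufb2 and Sdhd, against 18.1% of protein-coding and 20.7% of all promoters. The full palindromic corticosteroid receptor element, whose arms can overlap that hexamer, was in 0 of 57, against 0.375% of protein-coding and 0.439% of all promoters, shares too low for a count over 57 promoters to differ from. The promoters of these genes were rich in CpG, with a median of 20 CpG per 300 bases against 11 in protein-coding and 7 in all promoters. The part of base composition in the shares above was not tested. No motif contains another of those searched, but matches can overlap in a promoter. A match describes these letters and is not a bound site, and an absent match says nothing about a receptor that binds elsewhere.

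**Figure D1:**
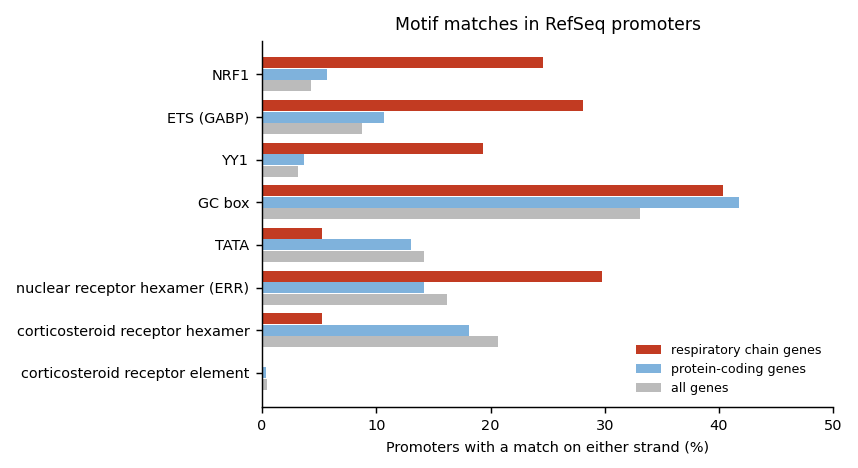
Share of promoters (%) with at least 1 match to each motif on either strand, for the 57 respiratory chain genes with a promoter (red), for protein-coding genes (blue) and for all genes (grey). NRF1, ETS and YY1 matches were found in 24.6%, 28.1% and 19.3% of the respiratory chain promoters, and the corticosteroid receptor hexamer in 5.26%.

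The arrays had medians of all rows from 2.22 to 2.44, and 65.0% of rows had a mean below 3, near the floor. Their scale was not the same. Vehicle rat 1 held the lowest value in 43.7% of all rows. Among rows with a mean of 4 or more it held the highest in 41.1%. Of the markers listed for the labelled cells, 6 measured genes of surface colonocytes had medians of 10.89 to 11.16 over the 4 rats, and 5 measured epithelial genes 10.97 to 11.34. Within these lists Slc9a3, a sodium-hydrogen exchanger of the surface cells, lay at 2.48 and 3.99 in vehicle rats and 8.39 and 3.44 in aldosterone rats, and the keratin Krt18 at 3.32 to 4.28. Measured markers of smooth muscle (4 of 4), enteroendocrine cells (4 of 4) and fibroblasts (3 of 4) stayed below 3 on every array. The leukocyte list had 1 of 5 below 3, and its highest member was Cd74, at 6.20 to 8.78. Among 3 measured goblet cell markers, Zg16 ranged from 4.45 in vehicle rat 2 to 8.06 in aldosterone rat 2. Of 5 crypt and proliferation markers, 4 stayed below 3. Sgk1, a known aldosterone target, read 10.51 and 10.64 with vehicle and 12.54 and 12.52 with aldosterone (3.87-fold). In limma its Benjamini-Hochberg adjusted p was 0.332 with a constant prior spread and 5.58e-04 with a prior that follows level (intensity trend).

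No respiratory chain gene passed the threshold between aldosterone and vehicle rats. In limma with the constant prior, 0 of the 63 genes had an adjusted p under 0.05 (0% of all 19403 rows), and with the intensity trend again 0 of 63 (0.108% of rows). At an unadjusted p under 0.05 there were also 0 of 63, against 4.53% of all rows. Among the 43 genes with a mean of 4 or more the count was 0 against 10.9% of such rows. Such a mean does not keep every value clear of the floor, as Atp5mc2 read 2.87 in vehicle rat 2. Both aldosterone values lay above both vehicle values in 7 genes (16.7% of all rows), namely Ndufs1, Ndufv2, Sdha, Sdhb, Cox8b, Atp5pb and Atp5pf. They lay below both in 3 genes (11.1% of all rows), namely Uqcrq, Atp5me and Ndufaf7. Among the 43 genes with a mean of 4 or more the counts were 6 higher and 2 lower, against 13.4% and 18.7% of such rows. Over all 63 genes the split of 7 and 3 became 4 higher and 8 lower with each array centred on its median (9.61% and 17.2% of all rows), and 6 and 5 with quantile normalization (17.2% and 15.4%). An exact permutation test of 2 rats against 2 cannot go below p = 0.333. In bulk samples such as these, fewer cells of a type and less RNA per cell cannot be told apart.

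The differences were small in most genes. The median difference, aldosterone minus vehicle, was 0.07 over the 63 genes (42 above 0, 21 below), beside 0.02 over all rows, of which 58.3% lay above 0. It was 0.12 over the 43 genes with a mean of 4 or more, beside -0.04 over all such rows, with 31 of the 43 above 0 against 44.5% of rows. Its direction rested on a single animal. Without aldosterone rat 2 the median was -0.08 over the 63 genes and only 16 lay above 0, while without aldosterone rat 1 it was 0.18 with 49 above 0. Leaving out a vehicle rat gave 0.05 and 0.08. The 95% interval of the difference lay within 1 on the log2 scale, a 2-fold change either way, in 47 of the 63 genes (74.6%, against 87.1% of all rows). Among those with a mean of 4 or more it did so in 27 of the 43 (62.8%, against 66.0% of such rows). For the genes counted, a change of 2-fold or more lies outside the interval, and for the others the spread between rats leaves it inside. Near the floor a narrow interval does not show that a transcript was steady. The intervals are those of the constant prior, and intervals with the intensity trend were not counted.

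**Figure D2:**
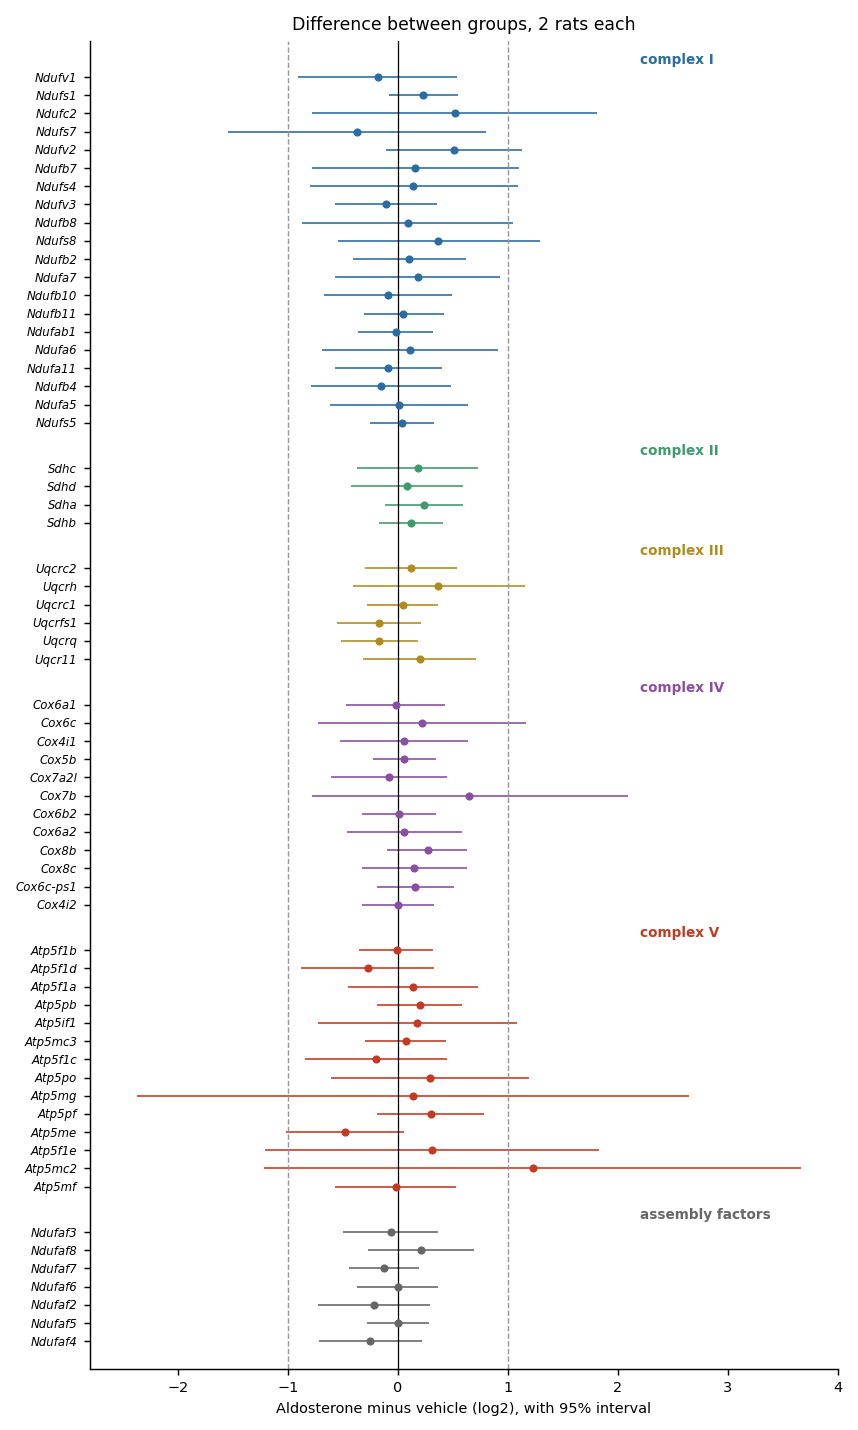
Difference between the groups (aldosterone minus vehicle, log2) for each of the 63 genes, with the 95% interval of the limma fit with a constant prior, 2 rats per group; dashed lines mark a 2-fold change either way. Every interval includes 0, and the widest are those of Atp5mg and Atp5mc2.

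Complex I oxidises NADH and is the largest complex of the chain. Its 20 measured subunits had a median difference of 0.07, 13 above 0 and 7 below, and 14 of them had a mean of 4 or more. The median was -0.09 without aldosterone rat 2 and -0.01 without vehicle rat 1, and 0.17 and 0.13 without the other rat of each group. Among the subunits that carry electrons, Ndufv2, which holds an iron-sulfur cluster next to the flavin, lay at 6.57 and 6.62 in vehicle rats and 6.81 and 7.39 in aldosterone rats. The groups did not overlap, with aldosterone rat 2 highest, and the difference of 0.51 ± 0.23 (SE) had an interval of -0.11 to 1.13 (unadjusted p = 0.0856, adjusted p = 1.00 in limma). Ndufs1, the largest iron-sulfur subunit, lay at 7.62 and 7.48 against 7.84 and 7.73. Both aldosterone rats stood above both vehicle rats, by 0.23 on average with an interval of -0.08 to 0.55. Ndufv1, which binds NADH and the flavin, was the complex I subunit of highest mean, at 7.91 and 8.24 in vehicle and 7.58 and 8.20 in aldosterone rats. Its groups overlapped, and the difference of -0.18 ranged from -0.49 to 0.13 when a rat was left out.

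Ndufs7 and Ndufs8, iron-sulfur subunits on the path to ubiquinone, had differences of opposite sign. Ndufs7 lay at 6.74 and 7.57 in vehicle rats and at 6.36 and 7.21 in aldosterone rats, a difference of -0.37. Ndufs8 lay at 4.40 and 4.90 against 4.64 and 5.40, a difference of 0.37. In both genes rat 2 of each group stood higher than rat 1, and the groups overlapped. Ndufc2, an accessory subunit of the membrane arm, lay at 7.02 and 7.22 in vehicle rats and at 6.98 and 8.29 in aldosterone rats. Only the last of these values stood apart, and the difference of 0.52 ranged from -0.13 to 1.17 when a rat was left out. Ndufb7 and Ndufb8 of the same arm also had their highest value in aldosterone rat 2, at 6.73 and 5.56. The accessory subunits Ndufs4 and Ndufv3 differed by 0.14 and -0.11, and Ndufa6, Ndufa7, Ndufb2, Ndufb10 and Ndufb11 by -0.09 to 0.18. Ndufab1, the mitochondrial acyl carrier protein, Ndufa11 and Ndufb4 had means below 4 and differed by -0.15 to -0.02. Ndufa5 and Ndufs5 lay near the floor, with all values at or below 2.51.

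Complex II, succinate dehydrogenase, is shared by the chain and the tricarboxylic acid cycle. All 4 of its subunits were measured, and all 4 differences lay above 0, by 0.08 to 0.24 with a median of 0.15. They also lay above 0 without aldosterone rat 1, while 3 of 4 did so without aldosterone rat 2 or without vehicle rat 1. Sdha, the flavoprotein that oxidises succinate, lay at 8.18 and 8.42 in vehicle rats and 8.57 and 8.51 in aldosterone rats. The groups did not overlap, and the difference of 0.24 ± 0.13 (SE) had an interval of -0.12 to 0.59 (unadjusted p = 0.141, adjusted p = 1.00). Sdhb, the iron-sulfur subunit, lay at 5.85 and 5.97 against 6.01 and 6.05. The groups again did not overlap, with a difference of 0.12 (interval -0.17 to 0.41). The membrane anchors overlapped between groups: Sdhc lay at 8.86 and 8.71 against 8.73 and 9.21, and Sdhd at 8.31 and 8.76 against 8.63 and 8.59. The intervals of all 4 subunits lay within 1 with the constant prior. With the intensity trend in limma the unadjusted p was 0.400 for Sdha and 0.707 for Sdhb, and intervals were not counted.

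Complex III passes electrons from ubiquinol to cytochrome c. Its 6 measured subunits had a median difference of 0.085, 4 above 0 and 2 below. Uqcrc2 and Uqcrc1, the large core proteins, differed by 0.12 and 0.05. Uqcrc2 lay at 8.19 and 7.88 in vehicle rats and 8.23 and 8.08 in aldosterone rats, and Uqcrc1 at 7.01 and 7.02 against 6.96 and 7.17, with overlap in both. Uqcrfs1, the Rieske iron-sulfur protein, lay at 6.14 and 6.01 against 5.78 and 6.03. Uqcrq, a small subunit, lay at 5.90 and 5.89 against 5.61 and 5.85, with both aldosterone rats lower and a difference of -0.17 (interval -0.52 to 0.18). The hinge protein gene Uqcrh lay at 7.33, 7.26 and 7.29 in the vehicle rats and aldosterone rat 1, and at 8.05 in aldosterone rat 2. Uqcr11 was likewise highest there, with 5.44 in aldosterone rat 2 and 4.97 to 5.06 in the others.

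Complex IV, cytochrome c oxidase, has several subunits with isoforms tied to tissues. Of the 12 measured genes, 6 had a mean of 4 or more and the other 6 had a mean below 2.35, the median of all rows. Cox4i1, the ubiquitous form of the subunit that senses ATP, lay at 8.20 and 7.84 in vehicle and 7.87 and 8.28 in aldosterone rats. Its isoform Cox4i2, known from lung and from hypoxia, lay at 1.72 to 1.92 in all 4 rats. Cox6a1, the form of most tissues, lay at 8.97 and 8.97 against 8.76 and 9.15, while Cox6a2 of heart and muscle stayed at 2.04 to 2.42. Cox8b of heart and muscle and Cox8c and Cox6b2 of testis had values of 1.82 to 2.43. The Cox8b groups did not overlap (1.82 and 2.00 against 2.08 and 2.28), at values below the median of all rows. Cox6c-ps1, a pseudogene of Cox6c, lay at 1.72 to 2.05, and how far probes of such copies share signal is uncertain.

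In the 6 complex IV genes with a mean of 4 or more the groups overlapped in each case. Cox5b lay at 7.81 and 7.78 against 7.92 and 7.80, with a difference of 0.06 (interval -0.23 to 0.35). Cox6c lay at 8.12 and 8.32 against 7.97 and 8.90, and Cox7a2l, which joins complexes III and IV in supercomplexes, at 6.15 and 5.90 against 5.73 and 6.15. Cox7b lay at 4.92 and 3.59 in vehicle rats and 4.60 and 5.21 in aldosterone rats, so that its difference of 0.65 had an interval from -0.78 to 2.09. Aldosterone rat 2 held the highest value in 10 of the 12 genes (83.3%, against 33.2% of all rows). The median difference of the complex was 0.06, with a range of -0.06 to 0.23 when a rat was left out.

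**Figure D3:**
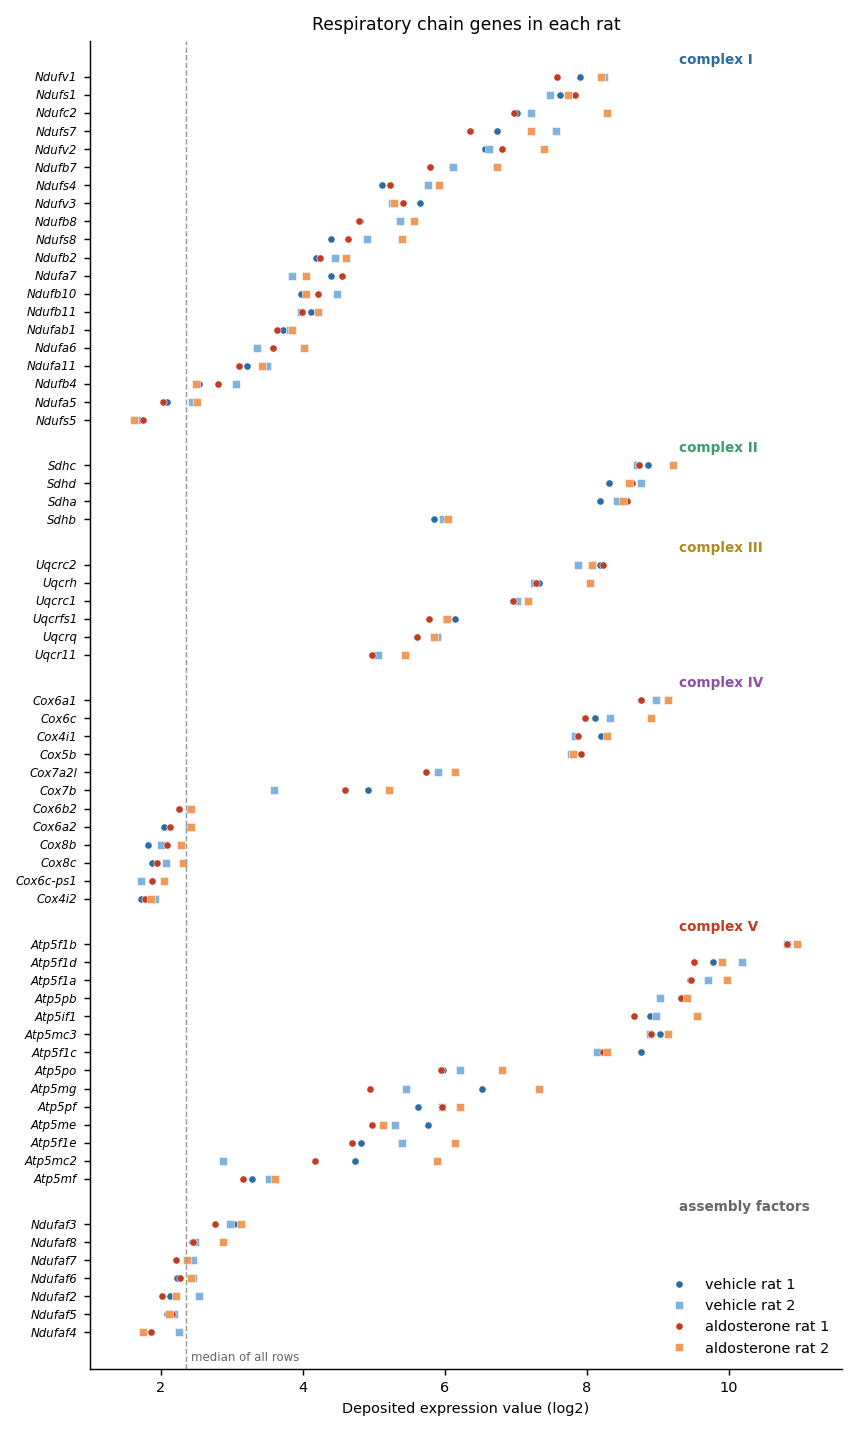
Deposited log2 values of the 63 genes in each rat, by complex and in order of mean level within it; circles are rat 1 and squares rat 2 of a group, blue for vehicle and red to orange for aldosterone, and the dashed line is the median of all row means (2.35). The tissue isoforms Cox4i2, Cox6a2, Cox6b2, Cox8b and Cox8c lie at the floor, and aldosterone rat 2 is the rightmost symbol in 38 genes.

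Complex V, the ATP synthase, had 14 measured genes with a median difference of 0.14, 9 above 0 and 5 below. In the catalytic head, the beta subunit gene Atp5f1b lay at 10.98 and 10.82 in vehicle and 10.82 and 10.96 in aldosterone rats. The groups overlapped almost fully, and the interval of the difference ran from -0.35 to 0.32. Atp5f1a, the alpha subunit gene, lay at 9.46 and 9.70 against 9.47 and 9.97, and Atp5f1d, the delta subunit gene, at 9.78 and 10.19 against 9.51 and 9.91. The gamma subunit gene Atp5f1c lay at 8.76 and 8.15 against 8.23 and 8.28. Atp5f1e, the small epsilon subunit gene, lay at 4.82 and 5.39 in vehicle rats and 4.69 and 6.14 in aldosterone rats. Each of these genes overlapped between the groups.

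The peripheral stalk holds the head in place. Its gene Atp5pb lay at 9.32 and 9.03 in vehicle rats and 9.33 and 9.41 in aldosterone rats, with no overlap and a difference of 0.20 (interval -0.19 to 0.58). Atp5pf lay at 5.62 and 5.96 against 5.96 and 6.21, without overlap only beyond the second decimal, and Atp5po, the OSCP subunit that ties stalk to head, at 5.97 and 6.21 against 5.95 and 6.81. In the membrane part, Atp5mc2 and Atp5mc3 encode the same mature c subunit of the rotor ring. Atp5mc3 lay at 9.03 and 8.89 against 8.91 and 9.15, a difference of 0.07 (interval -0.30 to 0.44). Atp5mc2 spread far more, at 4.73 and 2.87 in vehicle rats and 4.17 and 5.89 in aldosterone rats, and its difference of 1.23 had an interval of -1.22 to 3.67. Atp5me, subunit e of the dimer interface, lay at 5.77 and 5.30 in vehicle and 4.98 and 5.13 in aldosterone rats. Both aldosterone rats were lower, with a difference of -0.48 ± 0.20 (SE), an interval of -1.02 to 0.06 and the smallest unadjusted p of the 63 genes (0.0694, adjusted p = 1.00 in limma). Its partner Atp5mg lay at 6.53 and 5.46 against 4.95 and 7.32, with both the lowest and the highest value in aldosterone rats. Atp5mf lay at 3.16 to 3.61. Atp5if1, which encodes the inhibitor that blocks ATP hydrolysis by the enzyme, lay at 8.89 and 8.98 against 8.66 and 9.55.

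The 7 assembly factors of complex I measured here, Ndufaf2 to Ndufaf8, all had means below 4, and 5 of them lay below the median of all rows. Their median difference was -0.06, with 2 above 0 and 5 below. Ndufaf7, a methyltransferase that acts on the complex, lay at 2.37 and 2.46 in vehicle rats and 2.21 and 2.37 in aldosterone rats, without overlap only beyond the second decimal. Ndufaf3 had the highest mean, at 3.03 and 2.98 against 2.77 and 3.13. Ndufaf2, Ndufaf4, Ndufaf5 and Ndufaf6 had values of 1.75 to 2.54, with overlap between the groups. Ndufaf8 lay at 2.44 to 2.48 in the other rats and at 2.88 in aldosterone rat 2. All 7 intervals lay within 1, at levels near the floor, and they do not show that the transcripts were steady.

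Across the genes, the gap between the 2 aldosterone rats was more one-sided than the difference between the groups. It was also wider, but a gap between 2 single rats varies more by construction than a difference between group means. Aldosterone rat 2 held the highest of the 4 values in 38 of the 63 genes (60.3%), where it did so in 33.2% of all rows. Among the 43 genes with a mean of 4 or more it was highest in 27 (62.8%) and lowest in 0. Of all such rows it was highest in 21.8% and lowest in 28.5%. Aldosterone rat 1 held the lowest value in 26 of the 63 (41.3%, against 21.9% of all rows). After quantile normalization rat 2 was highest in 36 of the 63 genes (57.1%, against 25.9% of all rows), and with arrays centred on their medians in 25 (39.7%, against 16.0%). The median gap, aldosterone rat 2 minus rat 1, was 0.39 over the 43 genes and -0.04 over all rows with a mean of 4 or more. Between the vehicle rats the same gap, rat 2 minus rat 1, was 0.01 and -0.19.

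The gap between the aldosterone rats was 2.37 for Atp5mg, 1.72 for Atp5mc2, 1.45 for Atp5f1e and 1.31 for Ndufc2, and 0.76 to 0.94 for Ndufb7, Ndufb8, Ndufs7, Ndufs8, Cox6c, Atp5if1, Atp5po and Uqcrh. These genes were named after their gaps between the aldosterone rats were seen. Several also differed between the vehicle rats. There, rat 2 minus rat 1 was -1.07 for Atp5mg, -1.87 for Atp5mc2, 0.57 for Atp5f1e and 0.20 for Ndufc2. It was -0.08 to 0.82 for the others, with Uqcrh lowest and Ndufs7 highest. Complex V genes were higher in aldosterone rat 2 than in rat 1 in 14 of 14 cases, against 60.6% of all rows. Among those with a mean of 4 or more it was 13 of 13, against 46.4% of such rows. Among subunits that catalyse or carry electrons the gaps between the aldosterone rats varied. They were -0.11 for Ndufs1, -0.06 for Sdha, 0.04 for Sdhb and 0.14 for Atp5f1b. Larger gaps were 0.49 for Atp5f1a, 0.58 for Ndufv2, 0.62 for Ndufv1, 0.77 for Ndufs8 and 0.85 for Ndufs7. The goblet cell marker Tff3 was likewise lowest in aldosterone rat 1 and highest in rat 2, at 9.44 in aldosterone rat 1, 11.30 in aldosterone rat 2, and 11.12 and 10.74 in the vehicle rats, and the summed level of the 3 goblet markers ran from 9.61 in aldosterone rat 1 to 11.45 in rat 2. Zg16 was also highest in aldosterone rat 2 but lowest in vehicle rat 2. The summed level of the 5 measured leukocyte markers was 6.69 in aldosterone rat 1 and 8.24 in rat 2, beside 7.42 and 8.86 in the vehicle rats, with Cd74 at 6.20 and 8.02 in the aldosterone rats. Cd79b and Lyz2 were highest in aldosterone rat 2, at 3.82 and 4.19. The other leukocyte markers hardly differed between aldosterone rats 1 and 2, with Ptprc at 2.46 and 2.44 and Cd68 at 2.21 and 2.22. Ptprc was highest in vehicle rat 1, at 3.23. The part of goblet cells and leukocytes in the spread of the respiratory chain genes was not tested.

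**Figure D4:**
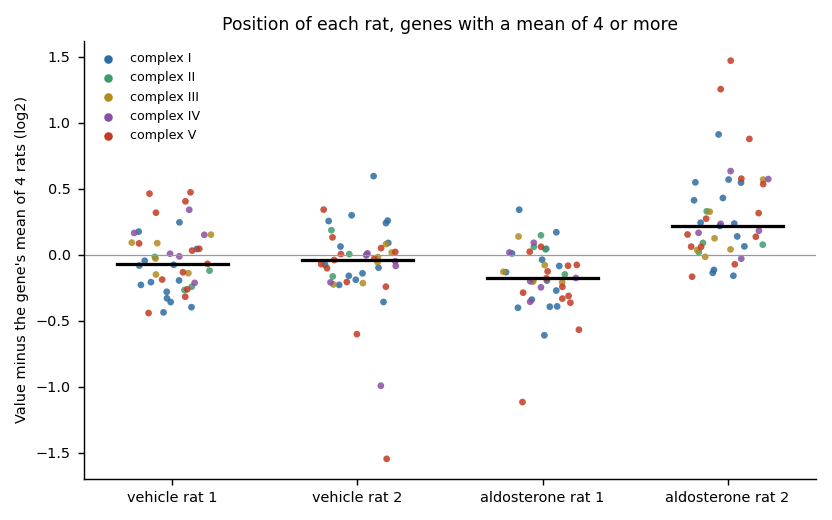
Value of each gene in each rat minus the gene's mean over the 4 rats (log2), for the 43 genes with a mean of 4 or more; points are genes coloured by complex and bars are medians. The medians are -0.07 and -0.04 in the vehicle rats, -0.18 in aldosterone rat 1 and 0.22 in aldosterone rat 2.

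Other genes of mitochondrial oxidation were taken from lists of known components. With either prior, limma put no measured gene of these lists under an adjusted p of 0.05. At an unadjusted p under 0.05 there were 2 of 113, Coq5 and Mrps11, against 4.53% of all rows. Of 6 further chain components, 5 differences lay above 0 (median 0.18). Without aldosterone rat 1 this was 3 of 6 with a median of -0.004, and without aldosterone rat 2 the median was 0.38. Cyc1, the cytochrome c1 gene, lay at 6.37 and 6.19 in vehicle and 6.36 and 6.29 in aldosterone rats, and Cycs, the cytochrome c gene, at 7.35 and 7.23 against 8.01 and 6.88. Both were named for their role after their values were seen. Etfa, which brings electrons from fatty acid oxidation, lay at 8.26 and 7.90 against 8.41 and 8.39, and its partner Etfb at 7.37 and 7.57 against 6.91 and 7.36. In these 6 genes aldosterone rat 2 was never the highest, where it was so in 33.2% of all rows. Of 15 genes of the tricarboxylic acid cycle and pyruvate dehydrogenase, 12 lay above 0 (median 0.11). The count was 10 and 12 without aldosterone rat 1 and 2, and 14 and 9 without vehicle rat 1 and 2, with a median of 0.02 in the last case. Pdha1, the catalytic subunit gene of pyruvate dehydrogenase, lay at 8.30 and 8.82 against 9.27 and 8.90, without overlap (interval -0.14 to 1.19), and Dlat of the same complex at 3.72 and 3.46 against 3.86 and 3.89.

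Among 13 regulators of mitochondrial biogenesis, with a median of 0.02, Ppargc1b had the difference farthest from 0. This coactivator of NRF1 and estrogen-related receptors lay at 4.78 and 4.59 in vehicle rats and 6.41 and 5.25 in aldosterone rats. Both aldosterone rats were higher, with the higher value in rat 1, and the difference of 1.15 (2.22-fold) had an interval of -0.01 to 2.31. Its unadjusted p was 0.0515, and its adjusted p was 1.00 with the constant prior and 0.721 with the intensity trend. The 51 measured genes of the mitochondrial ribosome, which translates the subunits encoded in mitochondrial DNA, had a median of 0.08. Both aldosterone values were higher in 12 of them (23.5%) and lower in 1 (1.96%), against 16.7% and 11.1% of all rows. Among the 15 with a mean of 4 or more the counts were 4 and 0, against 13.4% and 18.7% of such rows. Mrps11 lay at 1.88 and 2.03 against 2.29 and 2.44, near the floor, and Mrpl37 at 2.83 and 2.97 against 3.14 and 3.37. Without aldosterone rat 2 the median of this list was -0.03, and rat 2 was highest in 29 of the 51 (56.9%, against 33.2% of all rows). The 10 genes of coenzyme Q synthesis had a median of -0.04, with Coq5 at 2.90 and 2.86 against 3.30 and 3.16 (unadjusted p = 0.0293, adjusted p = 0.993) and Coq2, which attaches the side chain, at 4.21 and 3.48 against 3.07 and 3.36. The 18 further assembly factors had a median of 0.00, with Cox19 at 3.89 and 3.45 against 3.93 and 4.09 and Atpaf1, a factor for the ATP synthase head, at 4.26 and 4.09 against 4.64 and 4.30. Subunits encoded in mitochondrial DNA were not analysed here, as 0 of those listed were measured.

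**Figure D5:**
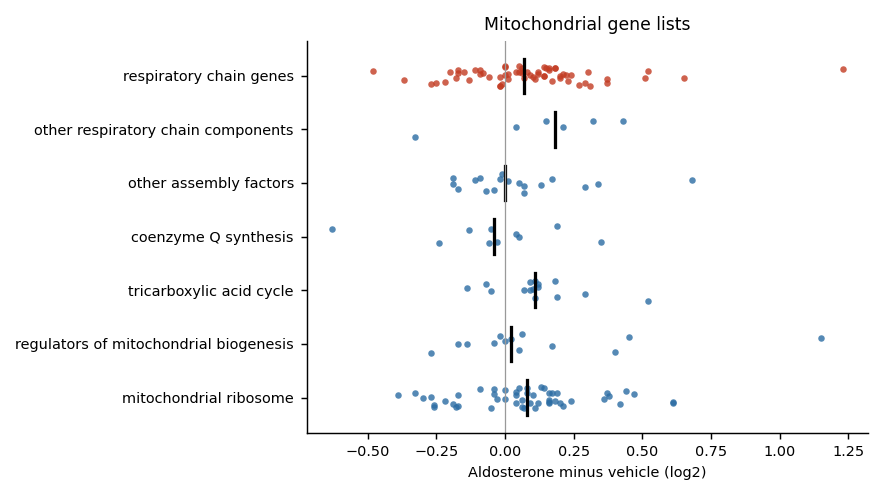
Difference between the groups (aldosterone minus vehicle, log2) for each gene of the respiratory chain (red) and of 6 further mitochondrial lists (blue); bars are medians. The medians run from -0.04 for coenzyme Q synthesis to 0.18 for the further chain components, and Ppargc1b lies at 1.15 among the regulators.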

How the data were processed

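Per the labels' protocols, colonocyte RNA was depleted of ribosomal RNA and made into biotinylated DNA for exon arrays. The authors deposited 1 column of log2 expression per rat. The submitters' processing notes list Partek, RMA and Expression Console, without roles or versions. The log2 scale was read from the range of the values, 1.36 to 13.68. No genome build or detection call is given in the sources used here. Rows were named through the platform annotation: 13327 rows had 1 symbol, 620 several and 5456 none here. All 63 genes matched the RefSeq table of GRCr8 by Entrez ID with the same symbol.

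Aldosterone minus vehicle was fitted over all 19403 rows in R 4.3.3 by limma 3.58.1 (constant prior, treatment only, two-sided, Benjamini-Hochberg over all rows, threshold 0.05). Intervals are 95% intervals of that fit. Motifs were counted and figures drawn in Python 3.11.15 (matplotlib 3.10.9, pandas 2.3.3). The number of arrays limits the precision. The genes, lists and tests were chosen with earlier results of these data known. Genes to be given in full were the highest structural subunit of each complex, up to 2 per direction and complex of smallest p without overlap, and the tissue isoforms, and in each further list up to 2 genes of smallest p without overlap; the other genes are given to account for every member. Alternatives were quantile normalization, median centring, filters on low rows, the replicate number as a block, other priors, averaging the rows of a gene and leaving out each rat. The labels call the rats of a group biological replicates.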

Additional observations from a re-analysis of the deposited data

How the results depend on the processing

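None of the 63 genes passed the threshold in any of the 15 alternatives, and the lowest adjusted p in limma was 0.573, without aldosterone replicate 1. Over all rows the constant prior called 0, against 1 without rows below the median, 12 without rows below a mean of 4, 21 with the intensity trend and 6 with the intensity trend and the replicate block. Genes at an unadjusted p under 0.05 numbered 0 in the reported fit and 2 with quantile normalization (Ndufs1 and Atp5me; 5.75% of all rows). They numbered 0 to 8 when a rat was left out, with 8 of 63 without aldosterone replicate 1 (5.17% of all rows). Genes higher without overlap were 7, against 4 with centred arrays (9.61% of all rows). Genes lower were 3, against 5 with quantile normalization (15.4%) and 8 with centred arrays (17.2%). Leaving out a rat gave 11 to 40 higher and 6 to 26 lower, where fewer values make overlap rarer by construction. Without aldosterone replicate 1 it was 40 higher and 6 lower (40.6% and 22.5% of all rows), without aldosterone replicate 2 11 and 26 (28.5% and 27.4%), without vehicle replicate 1 21 and 15 (28.2% and 35.0%) and without vehicle replicate 2 20 and 7 (49.6% and 23.7%). Genes with a difference above 0 were 42, and 16 to 49 when a rat was left out. The median over the 43 genes with a mean of 4 or more, 0.12, ran from -0.079 to 0.208 when a rat was left out. The medians by complex then ran from -0.091 to 0.174 for complex I, 0.085 to 0.244 for complex II, -0.043 to 0.098 for complex III, -0.058 to 0.226 for complex IV, -0.184 to 0.310 for complex V and -0.187 to -0.017 for the assembly factors. The median of the assembly factors was 0.073 over the 2 left without rows below the median. The sign of a single gene's difference changed in 7 of 63 with centred arrays, in 4 with quantile normalization and in 28 without aldosterone replicate 2. No gene had several rows, so that their mean changed nothing. The labels number the rats 1 and 2 in each group without saying that the numbers pair them, and deviations of the same-numbered rats correlated at 0.148 over all rows and at 0.093 over the 4815 rows with a mean of 4 or more. With the replicate block 3 genes had an unadjusted p under 0.05 (Ndufs7, Ndufs8 and Atp5pf; 6.61% of all rows), and 1 (Cox8b; 7.01%) with the block and the intensity trend. The tissue isoforms and the assembly factors lie near the floor, where signal over background limits what can be said of them.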
